A study of Homo sapiens with 24 samples.

Results

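The 50 genes described here encode regulators of pre-mRNA splicing: heterogeneous nuclear ribonucleoproteins (hnRNP), serine/arginine-rich (SR) proteins and tissue-biased RNA-binding proteins. They were taken as a list of symbols, matched through a table of gene names to the Ensembl identifiers of the deposited count files. All 50 were found among the 60605 genes of the files. After the filter on low counts, 44 of them stood among the 15869 genes tested. The cells were SBC-3, a cell line from a human small cell lung cancer. They received a small interfering RNA (siRNA) or an antisense oligonucleotide (ASO) at 10 nM, and poly(A)-selected RNA was sequenced 72 h later. SFPQ was targeted with siSFPQ-2 or siSFPQ-3, and NONO with siNONO-3 or siNONO-4, each set against cells given siCtrl, the control siRNA. NEAT1 was targeted with the oligonucleotides ASO-NEAT1-1047 or ASO-NEAT1-1473, set against ASO-Ctrl. Every group held 3 libraries of wild-type cells of the same line, 24 in all. Whether replicates were grown apart is not said in the labels, and the p-values rest on a spread between libraries that may be technical.

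Splice site choice is set by proteins that bind exons and introns and help or hinder the spliceosome. SR proteins bind exonic enhancers and mostly promote the inclusion of an exon, whereas many hnRNP proteins act at silencers. PTB, CELF, MBNL, RBFOX, NOVA and STAR proteins bind short motifs near exons and switch splicing between tissues, and several of these families hold paralogs that take each other's place during development. SFPQ, also known as PTB-associated splicing factor, and its partner NONO are nuclear RNA-binding proteins that sit on the long noncoding RNA NEAT1 in paraspeckles. The question asked of the regulators was which of their RNAs move when SFPQ or NONO is lost.

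The targeted genes were read first, in CPM, which are read counts made comparable between libraries by their totals and TMM factors. SFPQ RNA stood at 1268, 1191 and 1211 CPM in siCtrl and between 153 and 240 CPM in the 6 siSFPQ libraries, a fall to 17.5% of control. NONO RNA fell likewise to 17.5% of control with its siRNAs. The other targets moved as well. After SFPQ knockdown NONO RNA was at 143.6% of siCtrl (edgeR adjusted p = 5.13e-07) and NEAT1 RNA at 209.1% (adjusted p = 0.000261). After NONO knockdown SFPQ RNA was at 126.9% (adjusted p = 0.011), and NEAT1 was not called. In each of these rises every knockdown library lay above siCtrl. Their part in the changes of the regulators was not tested. NEAT1 RNA was not called lower with its ASOs (log2 fold change -0.26, edgeR adjusted p = 1), so those groups are named below as the libraries labelled ASO-NEAT1. The ASOs differed in value. With ASO-NEAT1-1047 the NEAT1 difference was 0.00, and with ASO-NEAT1-1473 it was -0.53 (69.4% of control, 95% interval -1.03 to -0.025, unadjusted p = 0.0408 and adjusted p = 1 in edgeR's quasi-likelihood test). NEAT1 stood at 216, 289 and 387 CPM in ASO-Ctrl and at 181, 205 and 232 CPM with ASO-NEAT1-1473, ranges that overlap, though each library was below the control of its number. Total counts ran from 4243196 to 14886353. Of 12 small cell lung cancer and epithelial markers, INSM1, NCAM1, UCHL1 and EPCAM had no read in siCtrl, CHGA, POU2F3 and KRT18 had group means of 0.0341, 0.148 and 0.0243 CPM there, and YAP1 and KRT8 were at 407 and 108 CPM. Among the neuroendocrine markers SYP and NEUROD1 were detected, at 17.2 and 4.62 CPM in siCtrl, while INSM1, NCAM1, UCHL1 and CHGA were at or near 0.

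The sequences just upstream of the start of 4 strongly moved regulators are shown as the promoter regions of genes whose RNA moved together or apart. They are PTBP3, which rose after SFPQ knockdown, and HNRNPAB, SRSF1 and HNRNPA2B1, which fell. The letters come from RefSeq (GRCh38.p14), which held promoters for 43 of the 50 genes. These 4 are the first, by size of change, with a single promoter in that table. Each run is the 250 bases before the start that RefSeq gives, on the strand of the gene: chr9:112333027-112333276 (minus), chr5:178204283-178204532 (plus), chr17:58007247-58007496 (minus) and chr7:26200747-26200996 (minus) in the same order. That start differs from the 5′ end of the gene as counted for 3 of them: the PTBP3 and HNRNPA2B1 windows lie within the counted gene and the SRSF1 window overlaps its end, while the HNRNPAB window ends where the counted gene begins. Capitals mark the CCAAT box (CCAAT, or ATTGG on the other strand) and the GC box (GGGCGG, or CCGCCC on the other strand), motifs whose letters do not overlap here.
PTBP3: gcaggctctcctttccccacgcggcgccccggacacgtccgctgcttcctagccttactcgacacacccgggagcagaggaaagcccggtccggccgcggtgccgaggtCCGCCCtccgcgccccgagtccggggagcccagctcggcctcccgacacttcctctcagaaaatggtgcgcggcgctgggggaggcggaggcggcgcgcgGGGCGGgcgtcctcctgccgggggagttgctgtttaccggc
HNRNPAB: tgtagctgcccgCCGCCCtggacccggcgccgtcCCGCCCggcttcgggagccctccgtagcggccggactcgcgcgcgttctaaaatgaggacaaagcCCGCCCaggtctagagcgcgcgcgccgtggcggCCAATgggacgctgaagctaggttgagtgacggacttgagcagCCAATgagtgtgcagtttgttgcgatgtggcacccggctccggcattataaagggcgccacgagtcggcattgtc
SRSF1: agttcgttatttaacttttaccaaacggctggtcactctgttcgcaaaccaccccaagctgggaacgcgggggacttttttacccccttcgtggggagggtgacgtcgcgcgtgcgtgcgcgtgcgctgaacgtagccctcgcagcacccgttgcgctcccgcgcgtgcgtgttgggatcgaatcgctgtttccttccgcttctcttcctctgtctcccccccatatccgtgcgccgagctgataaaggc
HNRNPA2B1: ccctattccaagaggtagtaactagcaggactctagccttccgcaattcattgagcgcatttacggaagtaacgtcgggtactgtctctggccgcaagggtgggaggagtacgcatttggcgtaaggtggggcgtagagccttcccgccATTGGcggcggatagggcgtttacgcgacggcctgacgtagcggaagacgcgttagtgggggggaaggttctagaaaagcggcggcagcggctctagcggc
PTBP3 and HNRNPAB carried 2 and 3 GC boxes, and HNRNPAB and HNRNPA2B1 carried 2 and 1 CCAAT boxes, while the SRSF1 window held neither. All 4 were rich in G and C, from 59.2% in HNRNPA2B1 to 73.6% in PTBP3. A CCAAT box stood in 32.0% of all 35116 promoters in the table and in 40.5% of the 84 promoters of the regulators, and a GC box in 42.6% and 53.6%. The median number of CpG was 11 over all promoters and 22.5 over those of the regulators. The risen and the fallen genes were not compared by motif.

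The regulators differed widely in level before any knockdown. Per kilobase of exonic length, HNRNPA2B1 was the highest in siCtrl at 189.5 CPM per kb, followed by HNRNPDL at 143.3 and KHDRBS1 (Sam68, a STAR protein) at 135.1 CPM per kb. The 15 hnRNP genes had a median of 93.8 CPM per kb, against 50.6 for the 12 tested SR genes and 15.2 for the 3 PTB genes. Among the tissue-biased factors, CELF2 reached 56.5 CPM per kb, while MBNL2 stood at 2.29 and NOVA1, known from neurons, at 0.101 CPM per kb. The 6 genes that were not tested were SRSF8, SRRM4, ELAVL2, ELAVL3, ELAVL4 and KHDRBS3. SRRM4 and the neuronal ELAVL4 had no read in any of the 24 libraries, which allows at most 0.012 CPM over all libraries. ELAVL3 had 113 reads in all and SRSF8, ELAVL2 and KHDRBS3 had 3, 1 and 3 reads.

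**Figure D1:**
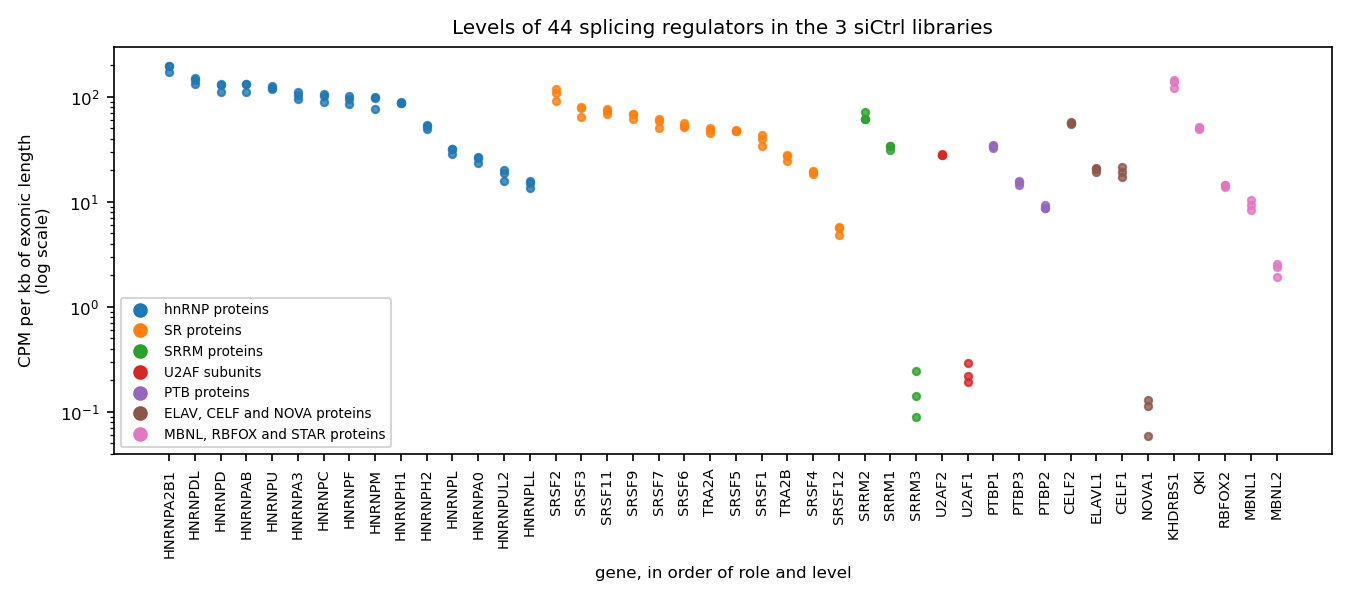
Level of each of the 44 tested splicing regulators in the 3 siCtrl libraries, in CPM per kb of exonic length on a log scale (1 point per library, colours by role). HNRNPA2B1 is the highest at 189.5 CPM per kb, and NOVA1, SRRM3 and U2AF1 lie under 1 CPM per kb.

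SFPQ knockdown changed most of the regulators, and more of them fell than rose. Of 44 tested, 11 rose and 25 fell at an adjusted p under 0.05 (edgeR's quasi-likelihood test, Benjamini-Hochberg), which is 81.8%, beside 70.4% of all genes tested. By direction, 25.0% of the regulators rose beside 34.7% of all genes, and 56.8% fell beside 35.8%. The median log2 fold change was -0.29 over the regulators and -0.02 over all genes. Changes were mostly moderate: 7 regulators (15.9%) were called and moved at least 2-fold, beside 32.6% of all genes. The 6 knockdown libraries lay all on one side of the 3 siCtrl libraries for 24 regulators (54.5%), beside 56.5% of all genes. Calls for HNRNPA0, HNRNPDL, HNRNPUL2, SRSF3, SRSF9, PTBP2, CELF1, NOVA1, MBNL1 and KHDRBS1 were lost under at least 1 alternative setting, and the other 26 were kept in every setting run. In bulk RNA, a change in every cell and a change in some of the cells cannot be told apart.

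The summed reads of the 50 genes made up 1.79% to 1.88% of the counts in siCtrl, 1.30% to 1.42% in siSFPQ-2 and 1.48% to 1.51% in siSFPQ-3. The siSFPQ libraries therefore lay below siCtrl without overlap, and they lay below all other groups too, the lowest of which was 1.73%. Reads from mitochondrial genes were 9.59% to 11.6% of counts in the siSFPQ libraries and 7.63% to 9.07% in siCtrl, and one siSFPQ-2 library had the lowest total count. The part of the mitochondrial share in the result was not tested. Without that library, 9 regulators rose and 25 fell. The markers of other cell types, 10 genes in all, summed to 14.4 to 24.8 CPM in the siSFPQ libraries and 11.2 to 17.7 CPM in siCtrl. Of those markers, 5 had no read in siCtrl, 4 none in siSFPQ-2 and 3 none in siSFPQ-3. Of the 4 that were tested, 2 rose after SFPQ knockdown, both from a few reads. LYZ, a myeloid marker, went from a mean of 0.119 CPM in siCtrl to 0.241 to 2.05 CPM in the siSFPQ libraries, which overlapped the control. PECAM1, an endothelial marker, went from a mean of 0.192 CPM to 0.496 to 1.47 CPM, with every library above the control.

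The small cell lung cancer and epithelial markers summed to 719 to 918 CPM in the siSFPQ libraries and 483 to 570.2 CPM in siCtrl, without overlap. Of the 5 tested, KRT8 (1.955), SYP (1.52) and KRT18 rose, the last from 1 read in siCtrl to 1.15 to 3.58 CPM, and NEUROD1 (-1.355) and YAP1 (-0.29) fell. In all 5 the knockdown libraries lay on one side of the control. The part of either marker list in the changes of the regulators was not tested.

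**Figure D2:**
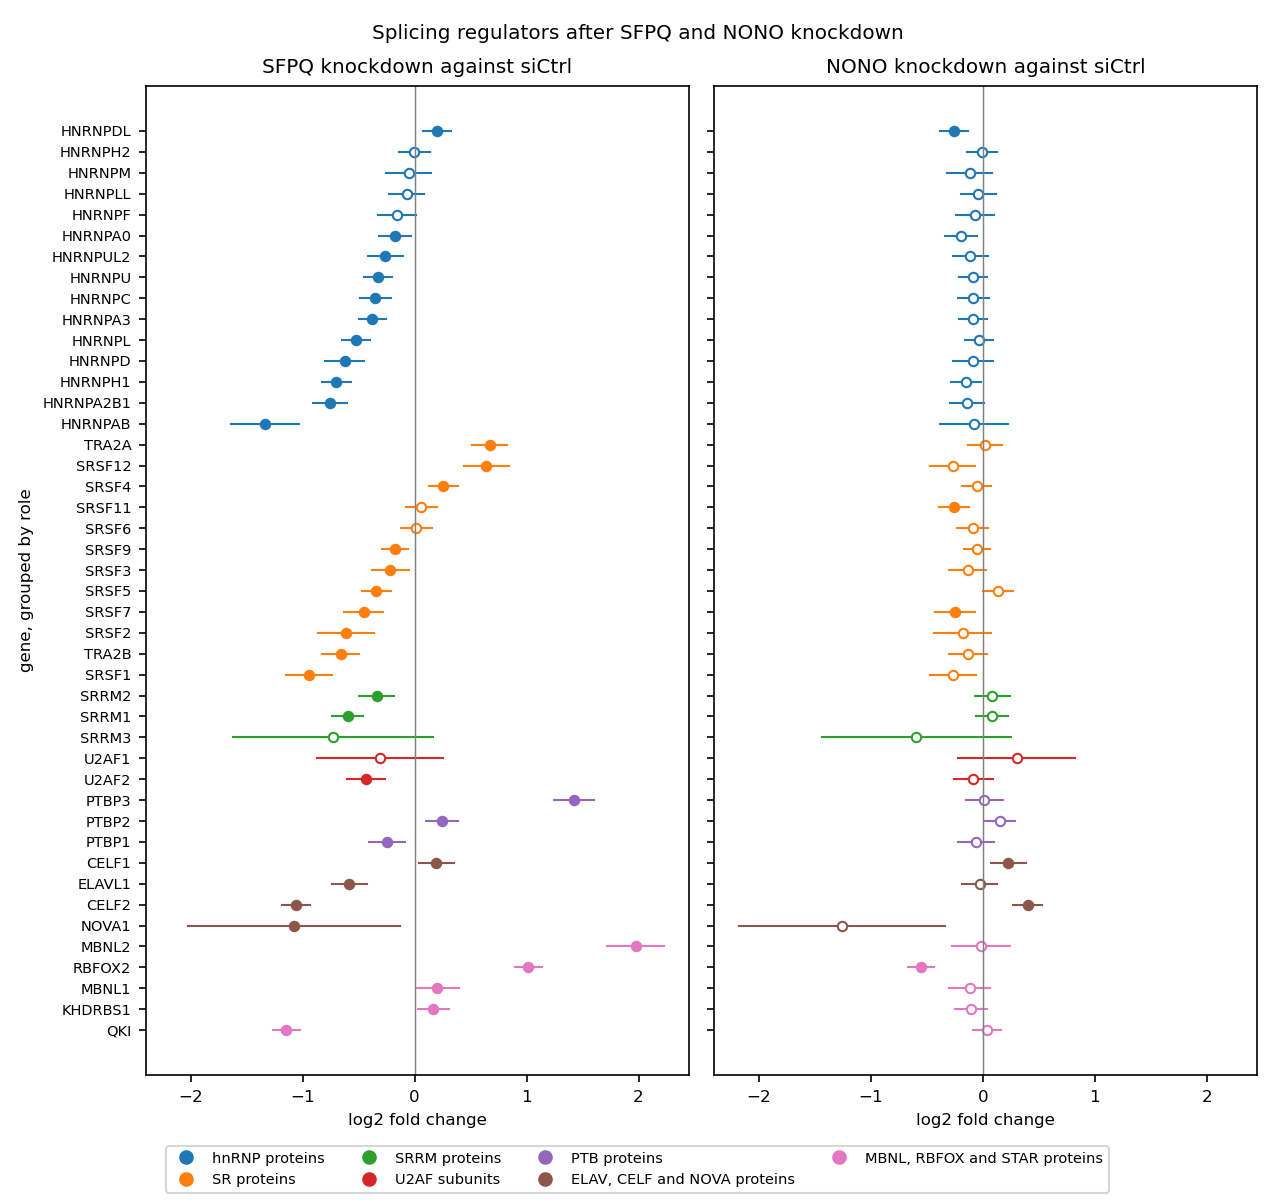
Log2 fold change of each of the 44 tested regulators against siCtrl after SFPQ knockdown (left) and NONO knockdown (right), mean of both siRNAs, with 95% confidence intervals as lines. Filled points are called at an adjusted p under 0.05, and colours give the role. After SFPQ knockdown 36 points are filled, from -1.34 for HNRNPAB to 1.98 for MBNL2, and after NONO knockdown 6 are filled.

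The hnRNP genes mostly fell after SFPQ knockdown: 10 of 15 fell and 1 rose (66.7% and 6.67%, beside 35.8% and 34.7% of all genes). Their median was -0.33. HNRNPAB (chr5:178204533-178211163, hg38), whose protein binds A/U-rich RNA, showed the largest fall of the group. Its level was 278, 279 and 235 CPM in siCtrl, 102, 104 and 54.7 CPM with siSFPQ-2 and 135, 140 and 107 CPM with siSFPQ-3. The groups did not overlap, and replicate 3 was the lowest of each of these groups. The change was -1.34 on the log2 scale (SE 0.14, adjusted p = 7.12e-08), a 2.53-fold fall. HNRNPAB shares 9.25% of its exonic bases with PHYKPL on the other strand.

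HNRNPA2B1, an abundant hnRNP core protein known as a reader of exonic silencers, had 2480, 2511 and 2178 CPM in siCtrl. With siSFPQ-2 it had 1329, 1451 and 1060 CPM and with siSFPQ-3 1607, 1625 and 1461 CPM. Both siRNA groups lay below the control in every library, and the change was -0.76 on the log2 scale (SE 0.07, adjusted p = 7.90e-10). HNRNPH1, which binds runs of G, went from 830, 825 and 847 CPM to 510, 506 and 412 CPM with siSFPQ-2 and 546, 575 and 539 CPM with siSFPQ-3, again without overlap. Its log2 fold change was -0.70 (SE 0.06, adjusted p = 1.37e-10). Its paralog HNRNPH2 had a log2 fold change of 0.00 (95% interval -0.14 to 0.13) and was not called.

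Smaller falls were called for HNRNPD (AUF1, which also binds A/U-rich elements, -0.62), HNRNPL (-0.52), HNRNPA3 (-0.38), HNRNPC (-0.35) and HNRNPU (-0.33). In all 5 the knockdown libraries lay below every control library. HNRNPUL2 (-0.26) and HNRNPA0 (-0.18) also fell, with libraries that overlapped the control. HNRNPUL2 shares 44.3% of its exonic bases with HNRNPUL2-BSCL2 on the same strand, which had 0 reads, so its count is uncertain. HNRNPDL, the D-like paralog of HNRNPD, was the only hnRNP gene that rose, by 0.20 (SE 0.06, adjusted p = 0.0049) with all 6 knockdown libraries above siCtrl. HNRNPF (-0.155), HNRNPLL (-0.07) and HNRNPM (-0.05) were not called. HNRNPF lay near the threshold and was called lower in 5 alternative settings, among them the replicate block (-0.15, adjusted p = 0.0224), upper quartile factors (adjusted p = 0.0461) and no filter on low counts (adjusted p = 0.0138).

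Among the SR genes, which encode exon-enhancer binding proteins, 7 of 12 fell and 3 rose. These were 58.3% and 25.0%, beside 35.8% and 34.7% of all genes, and the median was -0.20. SRSF1 (chr17:58000919-58007346), a founding member of the family, had 230, 251 and 198 CPM in siCtrl. It had 111, 115 and 88.1 CPM with siSFPQ-2 and 149, 133 and 120 CPM with siSFPQ-3. All 6 knockdown values were below the lowest control, and the change was -0.94 on the log2 scale (SE 0.10, adjusted p = 5.28e-09). SRSF2 (-0.61), SRSF7 (-0.46), SRSF5 (-0.34), SRSF3 (-0.22) and SRSF9 (-0.18) fell less. The libraries of SRSF7, SRSF3 and SRSF9 overlapped the control, and SRSF7 and SRSF3 were not called with both siRNAs. Group means of SRSF3 were 406 CPM with siSFPQ-2 and 506 CPM with siSFPQ-3, against 527 CPM in siCtrl. SRSF2 shares 35.8% of its exonic bases with MFSD11 and SRSF9 46.7% with GATC, both on the other strand, so their counts are uncertain. SRSF1 shares 32.7% with an unnamed gene on its own strand that had 0 reads in the 24 libraries, so its count is uncertain too.

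The paralogs TRA2A and TRA2B, which encode the Transformer-2 activators of exon inclusion, moved in opposite directions. TRA2A had 177, 169 and 158 CPM in siCtrl, 239, 261 and 277 CPM with siSFPQ-2 and 268, 263 and 295 CPM with siSFPQ-3. TRA2B had 357, 365 and 323 CPM in siCtrl, 186, 220 and 187 CPM with siSFPQ-2 and 259, 237 and 241 CPM with siSFPQ-3. Neither gene's knockdown libraries overlapped its controls. TRA2A rose by 0.67 (SE 0.07, adjusted p = 7.90e-09) and TRA2B fell by 0.66 (SE 0.08, adjusted p = 4.13e-08) on the log2 scale.

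SRSF12, a low-abundance SR protein, rose from 25.7, 26.2 and 21.7 CPM to 40.3, 37.7 and 33.4 CPM with siSFPQ-2 and 40.2, 43.6 and 34.1 CPM with siSFPQ-3, with no overlap between the groups. Its log2 fold change was 0.64 (SE 0.10, adjusted p = 2.01e-06). SRSF4 also rose (0.26), with libraries that overlapped the control, and was not called with both siRNAs. SRSF4 averaged 167.4 CPM in siCtrl, 179.5 CPM with siSFPQ-2 and 221.8 CPM with siSFPQ-3. SRSF6 (0.015) and SRSF11 (0.06) were not called. For SRSF6 the siRNAs lay on opposite sides of siCtrl, with group means of 240.3 CPM for siSFPQ-2, 290.6 CPM for siSFPQ-3 and 261.5 CPM for siCtrl. Of the SRRM genes, which encode SR-related matrix proteins of the spliceosome, SRRM1 (-0.60) and SRRM2 (-0.34) fell with all knockdown libraries below the control. The neuronal SRRM3 was near the limit of detection at a mean of 1.09 CPM in siCtrl and was not called (-0.73, SE 0.435).

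U2AF2, the large subunit of the factor that recognises the 3′ splice site, fell by 0.43 (SE 0.08, adjusted p = 4.84e-05). U2AF1, the small subunit, was not called (-0.31, SE 0.27) at a mean of 2.59 CPM in siCtrl. The genome build holds a near-identical copy of U2AF1, so its count is uncertain.

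The PTB family, whose proteins bind pyrimidine-rich tracts and mostly repress exons, split by paralog in the mean of both siRNAs. PTBP3 (chr9:112217716-112333664) had 120, 129 and 127 CPM in siCtrl, 346, 348 and 287 CPM with siSFPQ-2 and 329, 378 and 331 CPM with siSFPQ-3. The lowest knockdown library was above the highest control by a wide margin. The change was 1.42 on the log2 scale (SE 0.09, adjusted p = 3.08e-14), a 2.68-fold rise. PTBP2, the neuronal paralog, rose by 0.24 (SE 0.07, adjusted p = 0.00254), and PTBP1, the widely expressed one, fell by 0.24 (SE 0.08, adjusted p = 0.00711). Both of these had libraries that overlapped the control, and neither was called with both siRNAs. PTBP2 averaged 130.7 CPM in siCtrl, 141.6 CPM with siSFPQ-2 and 169.5 CPM with siSFPQ-3. PTBP1 averaged 254.5, 196.2 and 234.8 CPM in the same order.

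Within the MBNL, RBFOX and STAR group, 4 of the 5 tested genes rose and 1 fell. MBNL2 (chr13:97221434-97394120), a muscleblind protein that promotes adult splicing patterns, showed the largest change of all 44 regulators. It had 11.7, 12.6 and 9.40 CPM in siCtrl, 44.1, 48.9 and 51.3 CPM with siSFPQ-2 and 38.7, 40.0 and 41.7 CPM with siSFPQ-3. The knockdown values lay far above the controls with no overlap, and the change was 1.98 on the log2 scale (SE 0.12, adjusted p = 7.09e-14), a 3.93-fold rise. Its paralog MBNL1 was called at the edge of the threshold (0.20, SE 0.09, adjusted p = 0.0476), with overlapping libraries. Against ASO-Ctrl as the reference, the MBNL1 value turned to -0.10 (adjusted p = 0.323). MBNL1 also shares 11.4% of its exonic bases with MBNL1-AS1 on the other strand.

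RBFOX2 (chr22:35738736-36028824), which binds GCAUG elements and regulates exons in epithelial and muscle cells, had 145, 149 and 152 CPM in siCtrl. It had 302, 283 and 274 CPM with siSFPQ-2 and 329, 311 and 303 CPM with siSFPQ-3, all above the control. The change was 1.01 on the log2 scale (SE 0.06, adjusted p = 1.62e-14). QKI (chr6:163414000-163578592), a STAR protein that acts in splicing and in circular RNA formation, moved the other way. It had 859, 870 and 890 CPM in siCtrl, 380, 435 and 398 CPM with siSFPQ-2 and 381, 385 and 391 CPM with siSFPQ-3, with no overlap. Its log2 fold change was -1.15 (SE 0.06, adjusted p = 1.58e-15). KHDRBS1 rose by 0.17 (adjusted p = 0.0327), with overlapping libraries. Against ASO-Ctrl the KHDRBS1 value was 0.08 and not called (edgeR adjusted p = 0.275).

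In the ELAV, CELF and NOVA group, 3 of the 4 tested genes fell and CELF1 rose. These were 75.0% and 25.0%, beside 35.8% and 34.7% of all genes. With siSFPQ-2 alone 2 of the 4 were called lower and 0 higher. With siSFPQ-3 alone 2 were called lower and 1 higher. CELF2 (chr10:10798397-11336675), a factor known from muscle, brain and T cells, had 634, 614 and 612 CPM in siCtrl. It had 397, 403 and 368 CPM with siSFPQ-2 and 230, 241 and 215 CPM with siSFPQ-3. Both siRNA groups lay below the control, and the siSFPQ-3 libraries lay below the siSFPQ-2 libraries. The change was -1.06 on the log2 scale (SE 0.06, adjusted p = 1.44e-14). ELAVL1 (HuR), which stabilises A/U-rich mRNAs, fell by 0.58 (SE 0.08, adjusted p = 1.27e-07). CELF1 rose by 0.19 (SE 0.08, adjusted p = 0.0272), with overlapping libraries. NOVA1 had 239 reads over 24 libraries and a mean of 1.04 CPM in siCtrl. Its fall (-1.08, SE 0.46, adjusted p = 0.0386) had overlapping libraries.

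**Figure D3:**
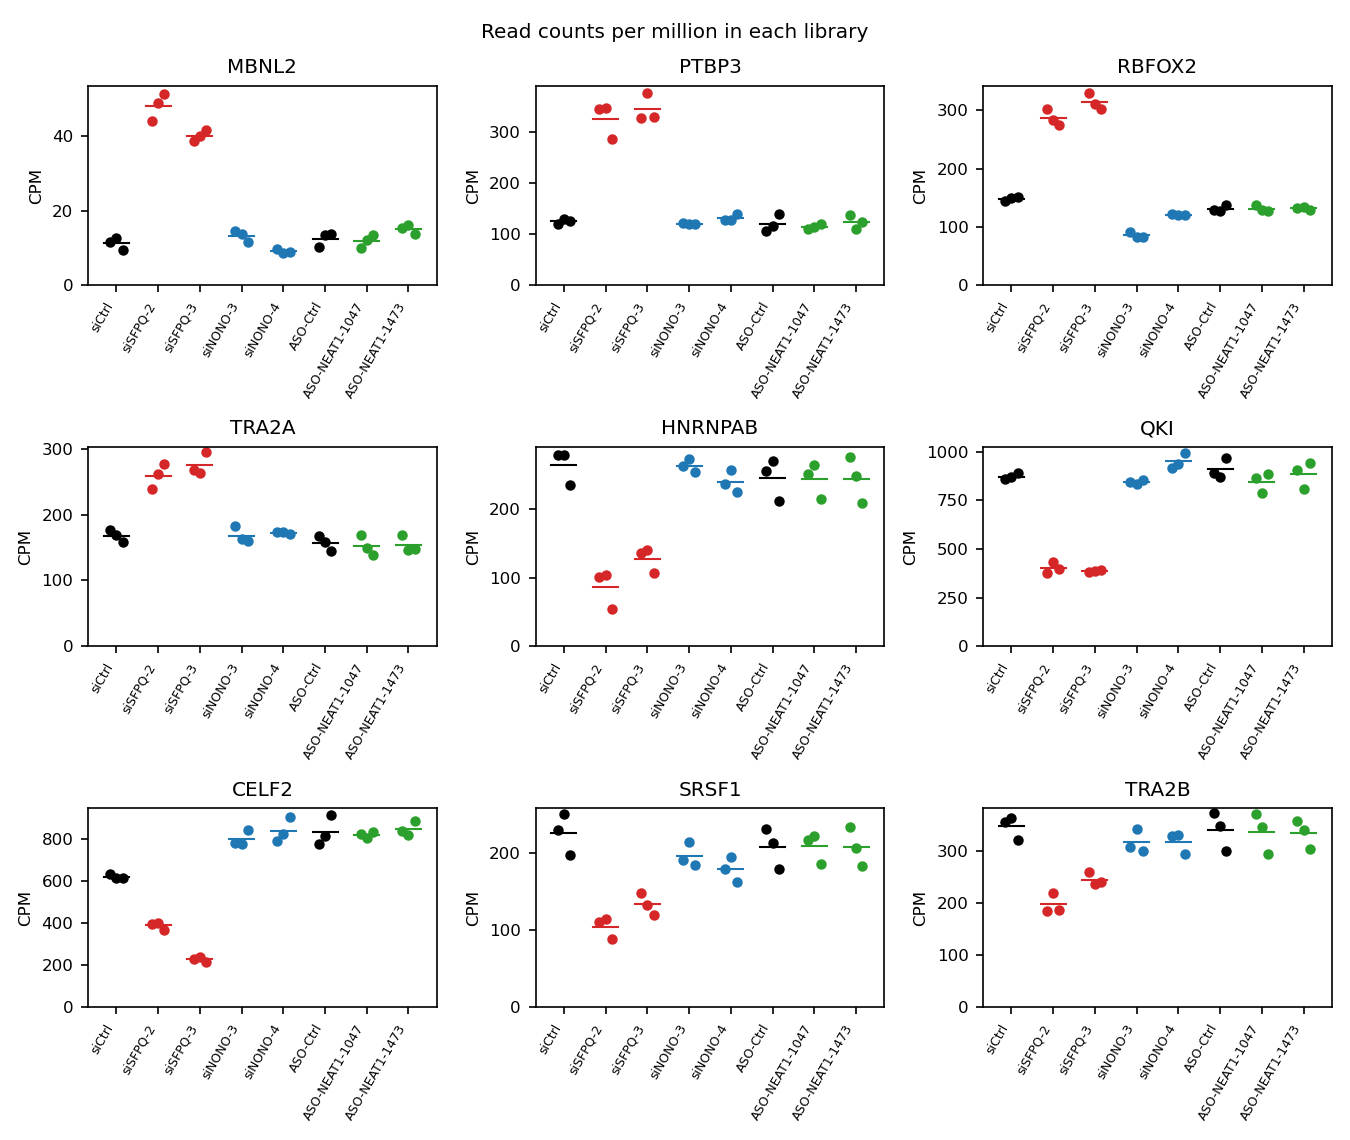
CPM of 9 splicing regulators in every library (points) with the mean of each group (line). Control groups are black, siSFPQ red, siNONO blue and the groups labelled ASO-NEAT1 green. MBNL2, PTBP3, RBFOX2 and TRA2A lie higher and the other 5 genes lower in the 6 siSFPQ libraries than in siCtrl, with no overlap.

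The regulators were also grouped by the genomic span of their genes. Of 24 regulators spanning under 30 kb, 3 rose and 17 fell after SFPQ knockdown (12.5% and 70.8%), beside 31.0% and 35.0% of all tested genes of that span, and the medians were -0.32 and -0.06. Of 12 spanning 30 to 100 kb, 3 rose and 5 fell (25.0% and 41.7%), beside 40.5% and 32.5% of all genes, with medians of -0.21 and 0.085. Of 7 spanning 100 to 300 kb, 5 rose and 2 fell (71.4% and 28.6%), beside 38.4% and 39.8%, with medians of 0.24 and -0.04. CELF2, at 538.3 kb the only regulator over 300 kb, fell by 1.06, where 60.5% of all 539 tested genes of that span fell and their median was -0.94. The risers PTBP3, MBNL2 and RBFOX2 and the faller QKI all spanned between 100 and 300 kb.

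The rest of the splicing machinery was read through lists of genes that are not regulators of the set. Of 55 core spliceosome genes, 34 fell and 14 rose after SFPQ knockdown (61.8% and 25.5%, median -0.31), beside the 35.8% and 34.7% of all genes tested that fell and rose. The largest falls were SF3B5 (-1.60), a small subunit of the SF3b complex, and SNRPD3 (-1.46), an Sm protein of the small nuclear ribonucleoproteins. The largest rises were SYF2 (1.47) and SLU7 (1.17), both associated with the catalytic spliceosome. Of 8 minor spliceosome genes 3 rose, among them ZRSR2 (0.61) and RNPC3 (0.55), and 3 fell, among them SNRNP25 (-1.11) and ZCRB1 (-0.61). Each direction holds 37.5% of the list, near the share of all genes.

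Of the kinases that phosphorylate SR proteins and related factors, 3 of 8 tested rose and 3 fell, which is again 37.5% in each direction and near the share of all genes. DYRK1A (1.41) and CLK4 (0.64) rose, whereas SRPK2 (-0.46) and SRPK1 (-0.36) fell. In the exon junction complex, which marks spliced mRNA, 5 of 9 genes fell and 2 rose (55.6% and 22.2%). MAGOH (-0.98) and EIF4A3 (-0.79), both of its core, fell, while CASC3 (0.24), also a core component, and ACIN1 (0.22) rose. Of 30 further tested splicing regulators 16 fell and 5 rose (53.3% and 16.7%). PCBP1 (-1.40), a poly(C)-binding protein, and RBM6 (-0.93) fell, and RBM22 (0.62) and MATR3 (0.42, a symbol held by more than 1 identifier in the files) rose. These are the largest changes at a group mean of 5 CPM or more. NOVA2, the paralog of NOVA1, named here after its values were seen, rose further (2.005, SE 0.39) but its group means stayed below that level, with libraries at 0.626 to 1.38 CPM in siCtrl and 2.23 to 6.295 CPM in the siSFPQ libraries.

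Without a block for the replicate number, few of the regulators were called after NONO knockdown. Of 44 regulators, 2 rose (CELF2 and CELF1) and 4 fell (RBFOX2, HNRNPDL, SRSF11 and SRSF7), which is 13.6%, beside 17.4% of all genes tested. By direction these were 4.55% and 9.09% of the regulators, beside 7.47% and 9.96% of all genes. No regulator was called and changed at least 2-fold, beside 3.26% of all genes, and the median was -0.09, beside 0.00. The replicate numbers pair the libraries of this comparison, and with the replicate number as a block 12 regulators were called, 2 higher and 10 lower. Of all genes, 26.9% were called in the same fit, a share near that of the regulators. Among all genes called there, 44.8% were higher. The block added HNRNPA0 (-0.19), HNRNPH1 (-0.15), SRSF1 (-0.27), SRSF2 (-0.17), SRSF12 (-0.27) and NOVA1 (-1.27), all lower. Without replicate 1 of siCtrl 3 were called, namely CELF2, RBFOX2 and SRSF11. Without replicate 3 of siCtrl 7 regulators were lower.

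RBFOX2 showed the largest called change after NONO knockdown. Against 145, 149 and 152 CPM in siCtrl it had 91.4, 82.8 and 82.0 CPM with siNONO-3 and 122, 120 and 120 CPM with siNONO-4. All 6 values were below the control, and the siNONO-3 libraries were the lower ones. The change was -0.55 on the log2 scale (SE 0.06, adjusted p = 1.12e-07). Against ASO-Ctrl, whose level was also below siCtrl at 130, 127 and 137 CPM, it was -0.37 (adjusted p = 6.64e-05).

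CELF2 had 779, 775 and 842 CPM with siNONO-3 and 790, 823 and 904 CPM with siNONO-4, all above the 612 to 634 CPM of siCtrl. The change was 0.40 on the log2 scale (SE 0.06, adjusted p = 5.89e-05). The control ASO libraries, however, had 777, 815 and 912 CPM, a range that overlaps both siNONO groups. CELF2 was the only regulator that differed between the control groups (ASO-Ctrl minus siCtrl 0.43, SE 0.07, adjusted p = 0.00346), beside 0.454% of all genes. Against ASO-Ctrl its NONO value was -0.03 (adjusted p = 0.821), while its fall after SFPQ knockdown remained. HNRNPDL had 842, 806 and 729 CPM in siCtrl, 683, 672 and 619 CPM with siNONO-3 and 653, 698 and 651 CPM with siNONO-4, with no overlap. Its log2 fold change was -0.26 (SE 0.06, adjusted p = 0.00316), and 0.0577 was its adjusted p without replicate 1 of siCtrl.

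The other NONO calls were small. SRSF11, an SR-related protein, stood at -0.26 on the log2 scale (SE 0.07, adjusted p = 0.00782), with all 6 libraries below siCtrl. SRSF7 had -0.25 (SE 0.09, adjusted p = 0.0455) and CELF1 0.23 (SE 0.08, adjusted p = 0.0367), both with overlapping libraries. RBFOX2, CELF2 and HNRNPDL were called with both siRNAs and in their mean, 3 regulators beside 6.06% of all genes. Among the other machinery, 7 of 55 core spliceosome genes rose, among them PRPF3 (0.38) and SYF2 (0.29), and PRPF8 (-0.23) fell, which is 12.7% and 1.82% beside 7.47% and 9.96% of all genes. DYRK1A (0.24) rose among 8 tested kinases, and RBM42 (0.45) rose and TIA1 (-0.30) fell among 30 further regulators. No gene of the minor spliceosome or the exon junction complex was called by edgeR's quasi-likelihood test, with 1 of 8 and 0 of 9 at an unadjusted p under 0.05.

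SFPQ and NONO knockdown share the siCtrl libraries, so their values are given side by side and only their direct difference was tested. Of 44 regulators, 33 differed between the knockdowns (75.0%, beside 75.4% of all genes), 10 higher and 23 lower with SFPQ knockdown, beside 37.0% and 38.4% of all genes. The largest differences were MBNL2 (1.98 after SFPQ and -0.02 after NONO knockdown, difference 1.99, SE 0.10), RBFOX2 (1.01 and -0.55, difference 1.56, SE 0.05) and CELF2 (-1.06 and 0.40, difference -1.46, SE 0.05). For RBFOX2, CELF2 and HNRNPDL (0.20 and -0.26, difference 0.46, SE 0.05) the calls had opposite signs, which is 6.82% of the regulators. The share of all genes with opposite calls is not given here. The sign of CELF2 after NONO knockdown rests on siCtrl: against ASO-Ctrl its value was -0.03 (edgeR adjusted p = 0.821). PTBP3 (1.42 and 0.01), QKI (-1.15 and 0.04), HNRNPAB (-1.34 and -0.075), TRA2A (0.67 and 0.02) and ELAVL1 (-0.58 and -0.03) differed as well. SRSF7 was lower in both comparisons (-0.46 and -0.25), with a difference of -0.21 (SE 0.07, adjusted p = 0.0109). CELF1 was higher in both (0.19 and 0.23), and its difference was -0.04 and not called. Neither SRSF7 nor CELF1 was called with both siRNAs of either target. CELF1 averaged 203.7 CPM in siCtrl, 216.0 CPM with siSFPQ-2 and 203.6 CPM with siNONO-4. The NONO call of each gene was kept in 7 of 17 alternative settings, and the SFPQ call of CELF1 in 8 of 17.

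The siRNAs of SFPQ differed in the size of several changes. Of the 44 regulators, 26 were called with each siRNA and with their mean in one direction, beside 55.8% of all genes. With siSFPQ-2 alone 31 regulators were called, beside 64.9% of all genes, and with siSFPQ-3 alone 30, beside 67.0%. Directly compared, 16 differed between siSFPQ-2 and siSFPQ-3, beside 14.7% of all genes, 15 of them lower with siSFPQ-2, beside 8.61%, and 1 higher, beside 6.06%. HNRNPAB (-1.625 with siSFPQ-2 and -1.05 with siSFPQ-3), SRSF7 (-0.71 and -0.205), SRSF2 (-0.83 and -0.40) and SRSF1 (-1.12 and -0.76) were among these. CELF2 went the other way (-0.67 and -1.44). SFPQ RNA itself did not differ between the siRNAs beyond their spread (-0.11, SE 0.11, adjusted p = 0.588). With siNONO-3 alone 5 regulators were called, beside 19.9% of all genes, and with siNONO-4 alone 5, beside 11.0%. For NONO, 3 regulators differed between the siRNAs, beside 10.0% of all genes. CELF1 was at 0.46 with siNONO-3 and 0.00 with siNONO-4, RBFOX2 at -0.80 and -0.30, and MBNL2 at 0.26 and -0.29, the last of which was called with neither.

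**Figure D4:**
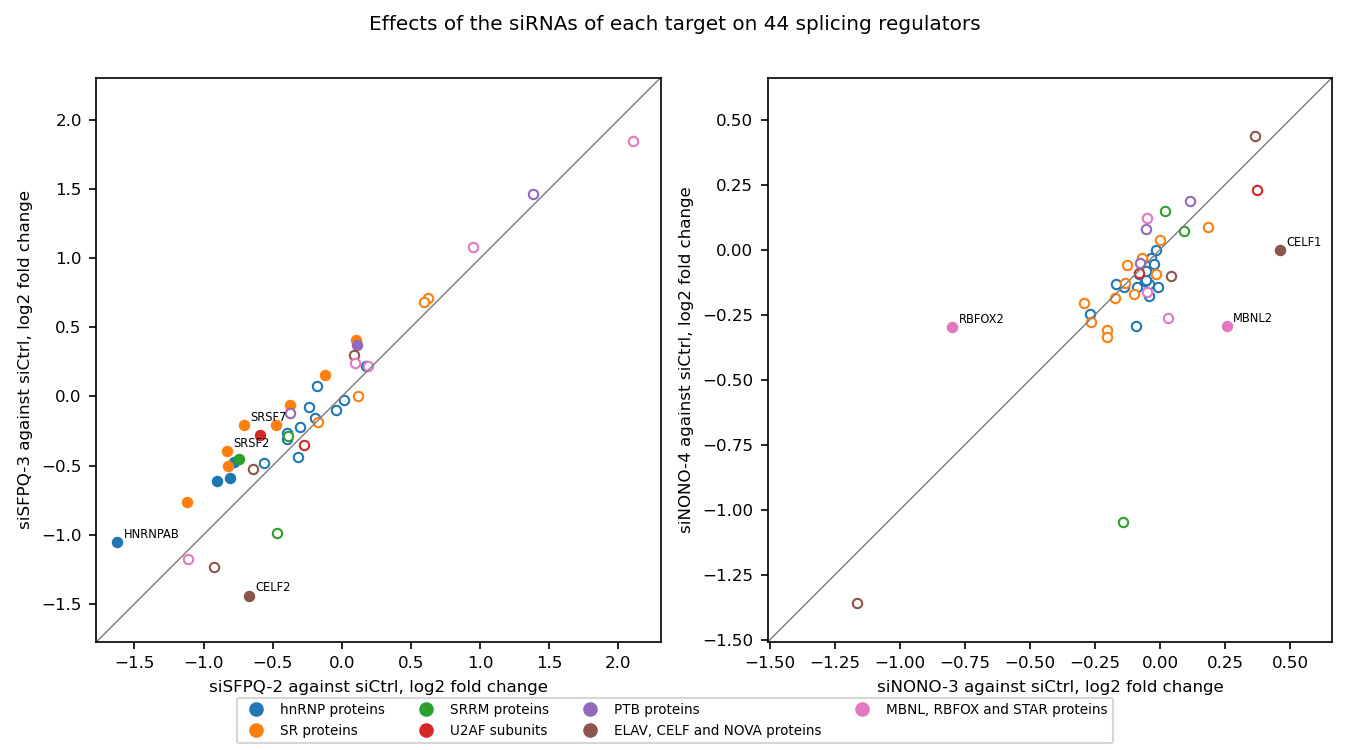
Log2 fold change against siCtrl of each of the 44 tested regulators with one siRNA (x axis) against the other siRNA of the same target (y axis), for SFPQ (left) and NONO (right). Both axes share siCtrl, the line marks equal values, and filled points differ between the siRNAs (16 and 3 genes), named where the difference is over 0.4. CELF2 lies below the line for SFPQ at -0.67 and -1.44, and most other filled points lie above it.

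With the libraries labelled ASO-NEAT1, no regulator was called by edgeR's quasi-likelihood test against ASO-Ctrl, beside 0.0% of all genes tested, and DESeq2 called 0 as well. At an unadjusted p under 0.05 there were 0 of 44 regulators and 353 of all 15869 genes. The median log2 fold change was -0.02 over the regulators. MBNL2 had 10.2, 13.6 and 13.8 CPM in ASO-Ctrl, 9.89, 12.3 and 13.5 CPM with ASO-NEAT1-1047 and 15.2, 16.3 and 13.7 CPM with ASO-NEAT1-1473, so these groups overlapped. RBFOX2 had 137, 130 and 127 CPM and 133, 134 and 129 CPM in the libraries labelled ASO-NEAT1-1047 and ASO-NEAT1-1473, and overlapped its control. For no regulator did the 6 libraries lie all on one side of ASO-Ctrl, beside 1.78% of all genes. Since NEAT1 RNA was not called lower, the values describe the libraries so labelled.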

How the data were processed

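For each of the 24 libraries the authors deposited raw counts of reads per Ensembl gene. Build hg38 and the tools STAR 2.7.5a, cutadapt 4.2, Subread 2.0.3 (featureCounts) and DESeq2 1.38.1 are named per the submitters' processing notes. For strand setting, annotation release and multiply mapped reads the choice is not given in the sources used here, so overlapping genes and near-identical copies are uncertain.

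The deposited counts were fitted with edgeR 4.0.16 in R 4.3.3 (TMM factors 0.949 to 1.045, expression filter by group, robust quasi-likelihood test). One fit held all 24 libraries. The effect of a target averaged both of its reagents and subtracted siCtrl or ASO-Ctrl. Calls used p-values adjusted by Benjamini-Hochberg over all 15869 genes tested, with a threshold of 0.05. Only called genes are said to have risen or fallen, values in parentheses after a gene are log2 fold changes, and SE is the standard error. The fit was tested on simulated data with known changes: it recovered most 2-fold changes but few of the smaller ones. The simulation used a fixed spread for all genes and changed few genes, in the siSFPQ groups alone. It therefore does not give the power for the NONO comparison. An uncalled regulator is not shown to be unchanged. DESeq2 1.42.0, other scalings, no filter on low counts, the libraries of an arm alone, a replicate block, each replicate left out and a threshold of 0.01 were alternatives. ASO-Ctrl as the reference was added after seeing the data.

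Values in every library are given for the 12 largest changes per target among regulators called with both siRNAs and in their mean at 5 CPM or more, and up to 2 risen and 2 fallen genes of each other list are named. The members and lists were chosen with earlier results of these data known. Same-numbered libraries correlated in their deviations from the group means by over 0.1 in 9 of 9 pairs of groups for NONO (0.114 to 0.329) and for NEAT1, and in 5 of 9 for SFPQ; this pairing comes from the data alone. No pair of replicates agreed within sampling noise. Gene names matched 60463 of the 60605 identifiers. Limits on counts of 0 rest on 3 counts and cover counting error only. The value of 1 marker gene is not reported here.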

Additional observations from a re-analysis of the deposited data

Results flagged for a closer look

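In the direct comparison of siSFPQ-2 with siSFPQ-3, 16 regulators differed at an adjusted p under 0.05 (edgeR's quasi-likelihood test). Values are log2 differences, siSFPQ-2 minus siSFPQ-3. CELF2 was the only one higher with siSFPQ-2 (0.77). The 15 lower ones were HNRNPAB (-0.57), SRSF7 (-0.50), SRSF2 (-0.44), SRSF1 (-0.36), TRA2B (-0.32), SRSF3 (-0.32), U2AF2 (-0.32), HNRNPD (-0.305), SRSF4 (-0.30), SRRM1 (-0.295), HNRNPA2B1 (-0.29), SRSF6 (-0.275), SRSF5 (-0.27), PTBP2 (-0.26) and HNRNPH1 (-0.22).

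Between siNONO-3 and siNONO-4, 3 regulators differed in the same test. MBNL2 (0.55) and CELF1 (0.46) were higher with siNONO-3, and RBFOX2 (-0.50) was lower. Groups of 3 libraries were not searched for single deviating libraries.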

How the results depend on the processing

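After SFPQ knockdown 30 to 37 regulators were called under every alternative against 36, and 31 to 35 when a replicate was left out. Without the filter on low counts 6 were higher against 11, while 32.4% of 38046 genes were called against 70.4% of 15869. Shares of all genes are not given here for left-out replicates or the threshold of 0.01. After NONO knockdown 6 were called. The replicate block gave 12, with 10 lower, beside 26.9% of all genes called. With the block 37 were called for SFPQ, 0 for NEAT1 and 34 for the difference between the targets. Of all genes 73.8%, 0.0% and 77.8% were called in those comparisons. Upper quartile factors gave 1 higher and 8 lower for NONO, beside 17.8% of all genes called. Higher calls for NONO were also 1 without the filter, at a threshold of 0.01 and against ASO-Ctrl. Leaving out replicates gave 3 to 9 for NONO, 1 to 2 of them higher and 2 to 7 lower. Against ASO-Ctrl, a reference chosen after seeing the data, MBNL1 turned to -0.10 for SFPQ and CELF2 to -0.028 for NONO. The cause of these changes was not tested. Between the targets 28 to 34 regulators differed, and for the libraries labelled ASO-NEAT1 the count was 0 in every setting. Of the calls, 26 of 36 for SFPQ, 2 of 6 for NONO (RBFOX2 and SRSF11) and 28 of 33 for the difference were kept in every setting, the threshold of 0.01 included. The difference calls that were lost were HNRNPUL2, SRSF9, U2AF1, SRSF7 and PTBP1, the last pair at the threshold of 0.01 alone. Depth limits NOVA1 and SRRM3, at 0.101 and 0.159 CPM per kb in siCtrl. U2AF1 was also low, at 0.233 CPM per kb, but its count is uncertain because the build holds a near-identical copy.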
